A study of Mus musculus with 2 samples.

Results

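Gata1, Gata2, Gata3 and Zfpm1, which encode the hematopoietic GATA transcription factors and their cofactor FOG-1, were examined in single cell ATAC-seq data of young and aged hematopoietic stem cells (HSCs). These are 4 of the 21646 protein-coding genes of the autosomes and the X chromosome. They were chosen as a gene family by name, with earlier results of these data known. Single cell ATAC-seq cuts open chromatin with a transposase and tags the fragments of each nucleus with a barcode, so that fragment counts measure how accessible a region is. The study asked how the chromatin of HSCs differs with age. The young library came from C57BL/6 mice of 10 weeks and the aged library from C57BL/6 mice of 20 months. Both were sorted from bone marrow of female mice as CD34-, CD48- and Flt3- but CD150+ cells within the c-kit+, Sca-1+, Lin- and IL-7- fraction, where IL-7- is the spelling of the labels and the study's methods name an antibody to the receptor, IL-7Rα. The number of animals behind each library was not given in the sources used here.

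Each age had 1 library. No test between ages was possible, and the 95% intervals below are exact binomial intervals of the ratio that cover counting error only. Reads per library were 74488413 pairs for the young and 64410295 for the aged. After keeping barcodes called as cells with 3000 to 20000 fragments in peaks, 4887 young and 3405 aged cells remained, with a median of 9888 and 11019 fragments per cell, and 26 barcode sequences occurred in both libraries. Levels are given as fragments per 1000000 fragments in peaks (FPM), and ratios as log2 of aged over young. The promoters of all 6 HSC markers (Hlf, Mecom, Fgd5, Procr, Slamf1 and Meis1) were open in both libraries, at 7.10 FPM or more in the young cells, with a summed level of 159 FPM in the young and 161 FPM in the aged cells. Among other lineages the sums over 6 promoters ran from 9.73 FPM in young and 7.88 FPM in aged cells for granulocyte and monocyte markers to 126 FPM and 121 FPM for megakaryocyte markers, the latter not far below the HSC markers.

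GATA factors bind WGATAR sequences through paired zinc fingers and work in blood cells within complexes that hold TAL1, LMO2, LDB1 and E proteins. GATA-2 is required for HSC emergence and maintenance, GATA-1 drives the erythroid, megakaryocyte and mast cell lineages, and GATA-3 directs T and innate lymphoid cells and is also present in HSCs. FOG-1, the product of Zfpm1, does not bind DNA on its own but docks onto the amino-terminal finger of GATA proteins. Gata2 is controlled by a set of enhancers named for their distance in kb from its upstream first exon (1S), among them -77, -3.9, -2.8, -1.8 and the intronic +9.5 element.

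The promoters of the 4 genes differed widely in level and little with age. Within 1 kb of the main transcription start, Zfpm1 had 109.8 FPM in the young and 107 FPM in the aged cells, Gata2 had 29.1 and 31.1 FPM, Gata3 had 26.1 and 30.4 FPM, and Gata1 had 1.501 and 1.912 FPM. The order of the levels was the same in both libraries, but Gata2 and Gata3 were close: their log2 ratio was 0.16 (0.03 to 0.29) in young cells and 0.03 (-0.11 to 0.17) in aged cells, the latter within counting error. In the young cells Zfpm1 stood at percentile 99.8 of all promoters, Gata2 at 66.8, Gata3 at 62.8 and Gata1 at 30.7. None of the 4 promoters passed 1.5-fold in either direction. Of the 14950 protein-coding promoters with at least 100 fragments, 3.93% did, and their median ratio was -0.05.

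**Figure D1:**
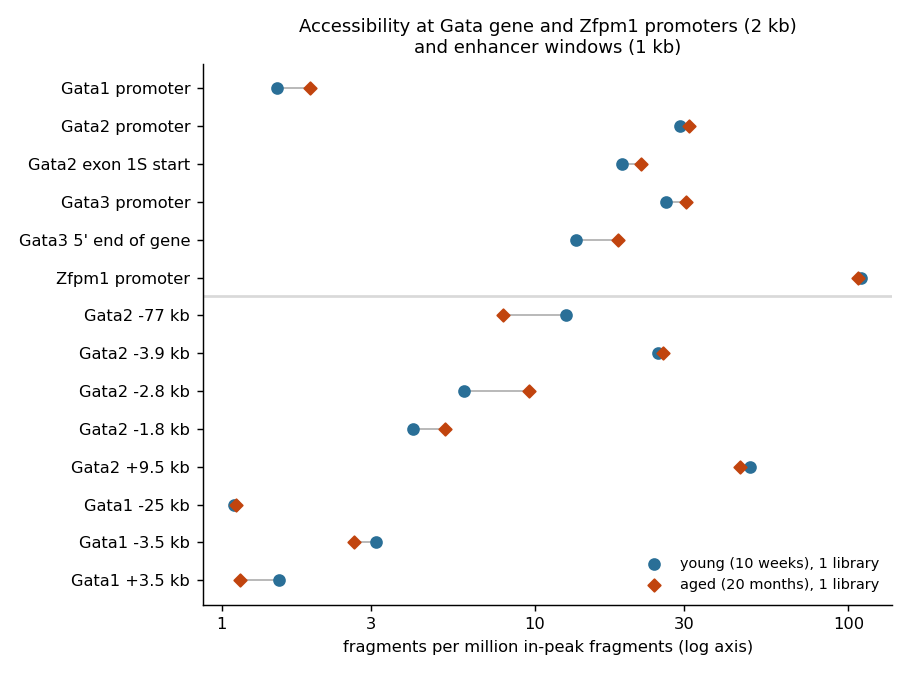
FPM (log axis) in the young library (circles) and the aged library (diamonds), for promoters of 2 kb above the line and enhancer windows of 1 kb below it. The Zfpm1 promoter lies near 100 FPM and the Gata1 promoter near 2 FPM at both ages, while the 2 symbols are far apart only for the Gata2 -77 and -2.8 kb windows.

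Zfpm1 had the most open promoter, with 3804 fragments in the young and 2806 in the aged cells (log2 ratio -0.03, interval -0.10 to 0.04). When each cell was thinned to 3000 fragments in peaks, 28.3% of 4788 young cells (27.0 to 29.6%) and 27.7% of 3271 aged cells (26.2 to 29.3%) had at least 1 fragment there. The 250 bases before the RefSeq start, on the plus strand of GRCm38 (mm10) at chr8:122281891-122282140, are shown because they carried much of this signal, with 1517 young and 1101 aged fragments. Their GC content was 73.2%, and they held 1 match to the ETS core GGAAGT and none to a GATA motif.

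Zfpm1 promoter: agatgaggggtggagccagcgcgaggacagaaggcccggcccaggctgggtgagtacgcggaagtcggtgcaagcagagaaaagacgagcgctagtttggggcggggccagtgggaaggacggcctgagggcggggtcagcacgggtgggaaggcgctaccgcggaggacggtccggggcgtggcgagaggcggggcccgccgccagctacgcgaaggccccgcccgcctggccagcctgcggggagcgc

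The gene body of Zfpm1, 55.1 kb long and on chromosome 8, was as open in aged as in young cells, at 5.14 FPM per kb in both, with a log2 ratio of 0.00 and an interval of -0.04 to 0.04. It held 17 of the 56 peaks with at least 100 fragments in its locus, defined as the gene with 150 kb on either side. Its intronic peaks also lie in introns of the overlapping gene Gm20388, and fragments there cannot be told apart by gene. The most open intronic peak that lay lower in aged cells was 2.8 kb into the gene, with 775 young and 473 aged fragments (log2 ratio -0.31, -0.47 to -0.14). The peak 14.8 kb into the gene went the other way, with 318 young and 330 aged fragments (0.46, 0.23 to 0.69). These 2 peaks were picked after their values were seen.

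The flanks of Zfpm1 held peaks with larger differences. Neighbouring peaks at -18.6 and -17.7 kb from the start, upstream of Zfpm1 in a Gm20388 intron, had 176 and 142 young fragments against 83 and 66 aged fragments, which gave log2 ratios of -0.67 (-1.07 to -0.29) and -0.69 (-1.14 to -0.27). Among bins with at least 100 fragments, the one with the lowest ratio lay 156 kb downstream in an intron of Mvd. It had 107 young and 25 aged fragments (-1.65, -2.38 to -1.05). Among peaks with at least 200 fragments, the one with the highest ratio lay at -137 kb, with 102 young and 156 aged fragments (1.01, 0.65 to 1.39). Other genes lie between Zfpm1 and the downstream bin, the start of Zfp469 lies between Zfpm1 and all 3 upstream peaks and is nearer to them, and no link of these regions to Zfpm1 was tested.

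Gata2 was the second most open of the 4 at its main promoter, that of exon 1G. This promoter had 1009 young and 812 aged fragments (log2 ratio 0.09, -0.04 to 0.23), and in thinned cells 8.35% of young (7.59 to 9.17%) and 9.08% of aged cells (8.12 to 10.1%) had a fragment. The promoter of exon 1S, at -4443 bp from it, had 656 young and 572 aged fragments, or 18.9 and 21.9 FPM, and its ratio of 0.21 had an interval above 0 (0.04 to 0.37). In the 250 bases before the 1S start (chr6:88193641-88193890, plus strand), shown because they were the more raised of the 2 Gata2 promoters, 130 young and 132 aged fragments gave a ratio of 0.43 (0.07 to 0.79).

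Gata2 1S promoter: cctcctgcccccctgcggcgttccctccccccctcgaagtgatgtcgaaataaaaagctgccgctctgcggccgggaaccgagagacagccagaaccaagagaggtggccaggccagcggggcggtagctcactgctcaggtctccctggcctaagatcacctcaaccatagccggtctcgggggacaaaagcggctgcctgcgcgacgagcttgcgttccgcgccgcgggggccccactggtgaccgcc

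Over the 13.1-kb gene body, Gata2 had 4187 young and 3198 aged fragments, or 9.20 and 9.31 FPM per kb, with a ratio of 0.02 (-0.05 to 0.08). Per kb this was the most open of the 4 gene bodies, at percentile 96.9 of all genes in the young cells. The gene body of Gata3 had 5.34 and 6.12 FPM per kb and that of Gata1 0.49 and 0.47. None of the 4 gene bodies passed 1.5-fold, against 3.42% of 17587 gene bodies with at least 100 fragments.

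The enhancers of Gata2 did not move together. Their windows were placed by the distance in their names, since no file gives their coordinates, so a window need not be centred on the mapped element. The +9.5 element in the intron was the most open of the 5, the -3.9 element next, and both differed by less than 1.5-fold between the ages. The -77 element was less open in aged cells, by 1.58-fold, and the -2.8 window more open, by 1.61-fold. Over the genome 13.6% of peaks with at least 100 fragments passed 1.5-fold, and their 5th to 95th percentile was -0.53 to 0.84. The -2.8 ratio of 0.69 lay inside that range and the -77 ratio of -0.66 below it. With at most 15000 in-peak fragments the -77 ratio fell short of 1.5-fold (-0.58), as did the -2.8 ratio in thinned cells (0.45, 0.02 to 0.87). The remaining window, at -1.8 kb, had 4.07 FPM in young and 5.16 FPM in aged cells (0.34, -0.01 to 0.69). Its interval lay above 0 in thinned cells (0.53, 0.02 to 1.04) and with at most 15000 in-peak fragments (0.42, 0.05 to 0.79). It also did so when fragment ends were counted (0.32, 0.07 to 0.58). Both ends of a fragment were counted there as if independent, so that interval is too narrow. In the other alternatives the interval of the -1.8 window spanned 0.

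**Figure D2:**
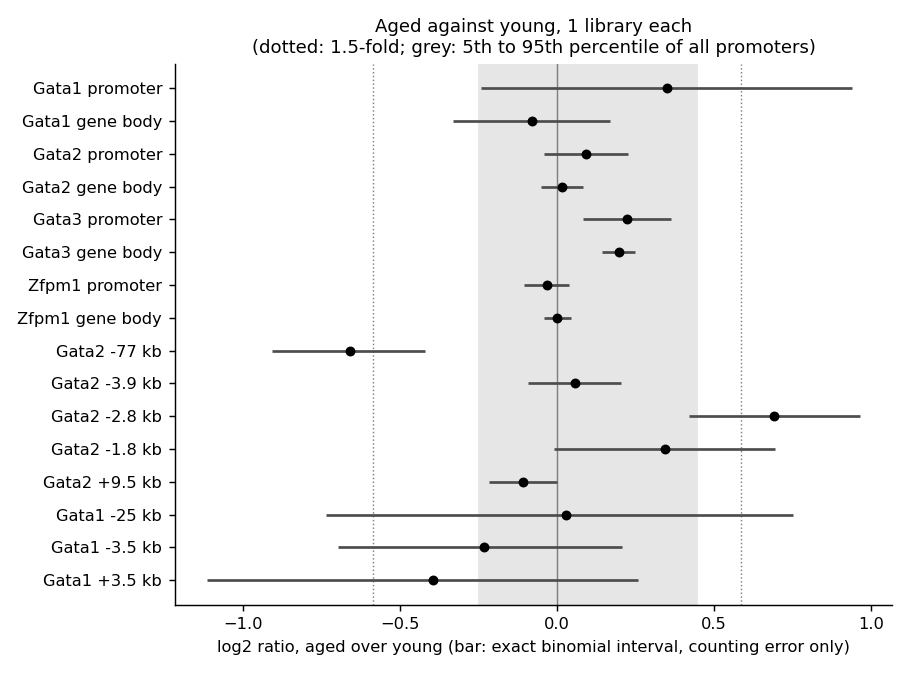
Log2 ratio of aged over young for the promoters, gene bodies and enhancer windows, with exact binomial intervals for counting error as bars, 1.5-fold as dotted lines and the 5th to 95th percentile of all promoters (-0.25 to 0.45) in grey. The 8 promoters and gene bodies lie inside the grey band, and only the Gata2 -77 and -2.8 kb windows lie past the dotted lines. The band is that of promoters, while peaks with at least 100 fragments spread more widely (-0.53 to 0.84, not drawn).

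At +9.5 kb the 1-kb window had 1680 young and 1177 aged fragments, or 48.5 and 45.0 FPM (-0.11, -0.22 to 0.00). A search of the Gata2 locus for the E-box-GATA composite, CATCTG and AGATAA separated by 8 bases on either strand, found a single match, at chr6:88203185-88203204 in the Gata2 intron, 9.3 kb from the 1S start. This composite is rare: it was present in 0.0195% of the 300-base windows around the summits of the 97319 peaks with at least 100 fragments. The sequence around it (chr6:88203045-88203344, plus strand, capitals for the E-box and GATA parts of the composite) is shown as the centre of the strongest peak of the locus.

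Gata2 +9.5: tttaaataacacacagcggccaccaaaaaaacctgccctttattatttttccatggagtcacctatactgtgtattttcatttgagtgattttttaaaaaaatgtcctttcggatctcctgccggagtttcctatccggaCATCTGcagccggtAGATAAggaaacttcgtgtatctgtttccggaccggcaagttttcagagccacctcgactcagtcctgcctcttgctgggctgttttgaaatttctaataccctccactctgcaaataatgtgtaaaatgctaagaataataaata

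These 300 bases had 1174 young and 830 aged fragments (-0.09, -0.22 to 0.03). In thinned cells 13.6% of young (12.6 to 14.6%) and 11.6% of aged cells (10.5 to 12.7%) had a fragment in the +9.5 window. Without thinning the shares were 28.8% and 28.3%. The ratio of the window depended on the counting: it was -0.27 (-0.45 to -0.09) in thinned cells and 0.02 (-0.10 to 0.14) in fragments shorter than a nucleosome. A window of the same width centred on the composite had a ratio of -0.11 (-0.22 to -0.0051).

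The -77 window had 434 young and 207 aged fragments, or 12.5 and 7.92 FPM, with a ratio of -0.66 (-0.91 to -0.42). It lies between genes, at chr6:88116391-88117390, and its nearest annotated start is that of Mir6376. In thinned cells 3.47% of young (2.97 to 4.02%) and 2.02% of aged cells (1.56 to 2.56%) had a fragment there. The peak at this site spanned 982 bases and had 2 maxima 346 bases apart, and the age difference lay in 1 of them. In the 300 bases around the first maximum there were 175 young and 120 aged fragments (-0.13, -0.49 to 0.20). Around the second, nearer to Gata2, there were 224 young and 75 aged fragments (-1.16, -1.57 to -0.79), which is 2.23-fold lower in aged cells. The split into 2 windows was made after the values were seen.

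Both windows are shown for comparison, on the plus strand, with WGATAR matches in capitals. The letters searched were GATA with A or T before it and A or G after it, on both strands, and 33.0% of the 300-base peak windows held at least 1 of them. The first window (chr6:88116565-88116864) held none. The second window (chr6:88116911-88117210) held 3, of which 2 overlap, with 1 match to the E-box CATCTG and 1 to the RUNX core TGTGGT, which occur in 19.9% and 26.7% of peak windows.

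Gata2 -77, first maximum: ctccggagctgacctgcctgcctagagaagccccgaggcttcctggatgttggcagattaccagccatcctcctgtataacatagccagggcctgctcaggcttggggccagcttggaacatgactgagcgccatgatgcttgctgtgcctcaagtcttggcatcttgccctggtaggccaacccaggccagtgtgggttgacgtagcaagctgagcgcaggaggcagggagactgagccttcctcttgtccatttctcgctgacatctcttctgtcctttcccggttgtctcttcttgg
Gata2 -77, second maximum: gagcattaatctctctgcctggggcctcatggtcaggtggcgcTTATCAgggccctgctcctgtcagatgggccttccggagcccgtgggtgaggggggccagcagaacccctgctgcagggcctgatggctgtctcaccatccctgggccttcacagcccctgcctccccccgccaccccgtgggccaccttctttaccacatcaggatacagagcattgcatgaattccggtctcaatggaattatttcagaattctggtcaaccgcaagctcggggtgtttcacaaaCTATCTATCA

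The granulocyte and monocyte marker promoters moved in part with this window. Of the 6, 3 had at least 100 fragments, and all 3 were past 1.5-fold, beside 0.602% of all promoters lower and 3.33% higher. Csf1r (114 young and 49 aged fragments, -0.80, -1.33 to -0.32) and Mpo (99 and 47, -0.65, -1.20 to -0.15) were lower in aged cells. Elane (55 and 71, 0.77, 0.25 to 1.31) was higher. All 3 lay not far above the minimum of 100 fragments. After removal of the 316 young and 196 aged cells with a fragment at any of the 6 promoters, a step added after the values were seen, the ratio of the -77 window was -0.68 (-0.94 to -0.43). Cells with a fragment there need not be of these lineages, and cells of these lineages with no fragment at the 6 promoters were not removed. The step therefore cannot separate these lineages from other cells, and their part in the result was not tested.

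The region from the -77 peak to the gene held differences in both directions. Of the 5 peaks between -79 and -61 kb, which include the -77 peak given above, 4 had intervals below 0. The other, at -69.9 kb, was at -0.02 (-0.18 to 0.13). Of the 5 peaks between -58 and -41 kb, 4 had intervals above 0, the other, at -46.2 kb, was at 0.16 (-0.08 to 0.39), and none passed 1.5-fold. Over the genome 14.9% of peaks had intervals below 0 and 18.7% above. These limits were drawn after the values were seen, so the counts are a description only. The peak at -63.9 kb had 196 young and 101 aged fragments (-0.54, -0.91 to -0.20).

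The -2.8 window had 206 young and 251 aged fragments, or 5.95 and 9.60 FPM (0.69, 0.42 to 0.96). In thinned cells 2.01% of young (1.63 to 2.44%) and 2.81% of aged cells (2.27 to 3.44%) had a fragment there. The peak nearest to the centre of this window was centred at -3.3 kb from exon 1S, between the named positions -2.8 and -3.9. It overlaps the window, so the rises of window and peak rest in part on the same fragments. The peak had the highest ratio of the peaks in the locus with at least 200 fragments. It had 182 young and 264 aged fragments (0.94, 0.66 to 1.22), 1.92-fold more in aged cells, and overlapped an exon of the noncoding gene Gm38708 near the start of that gene. The sequence at its summit (chr6:88190584-88190883, plus strand, WGATAR matches in capitals) held 2 WGATAR matches and 1 match to the RUNX core.

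Gata2, peak at -3.3 kb: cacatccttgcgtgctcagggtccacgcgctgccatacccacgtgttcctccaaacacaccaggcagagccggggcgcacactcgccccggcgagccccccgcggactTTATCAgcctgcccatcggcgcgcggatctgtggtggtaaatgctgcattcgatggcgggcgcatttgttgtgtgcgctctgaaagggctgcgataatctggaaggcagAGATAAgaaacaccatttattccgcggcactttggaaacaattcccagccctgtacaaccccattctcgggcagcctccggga

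Among peaks with at least 200 fragments, the one with the next highest ratio lay at -0.9 kb from exon 1S. It had 100 young and 122 aged fragments (0.69, 0.30 to 1.09). The -3.9 window, which overlaps the edge of the raised peak at -3.3 kb and holds 1 of the bins counted next, had 855 young and 671 aged fragments, or 24.7 and 25.7 FPM (0.06, -0.09 to 0.20). Of the 12 bins of the locus that passed 1.5-fold, 5 were centred between -3.6 and -0.6 kb from exon 1S, and all 5 were higher in aged cells. Over the genome 9.01% of bins passed 1.5-fold in that direction. That is a share of all tested bins, while the 5 are a count among passing bins, so they cannot be compared directly. The limits of -3.6 and -0.6 kb are the bins themselves, drawn after the values were seen. The bins share fragments with windows and peaks given above.

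**Figure D3:**
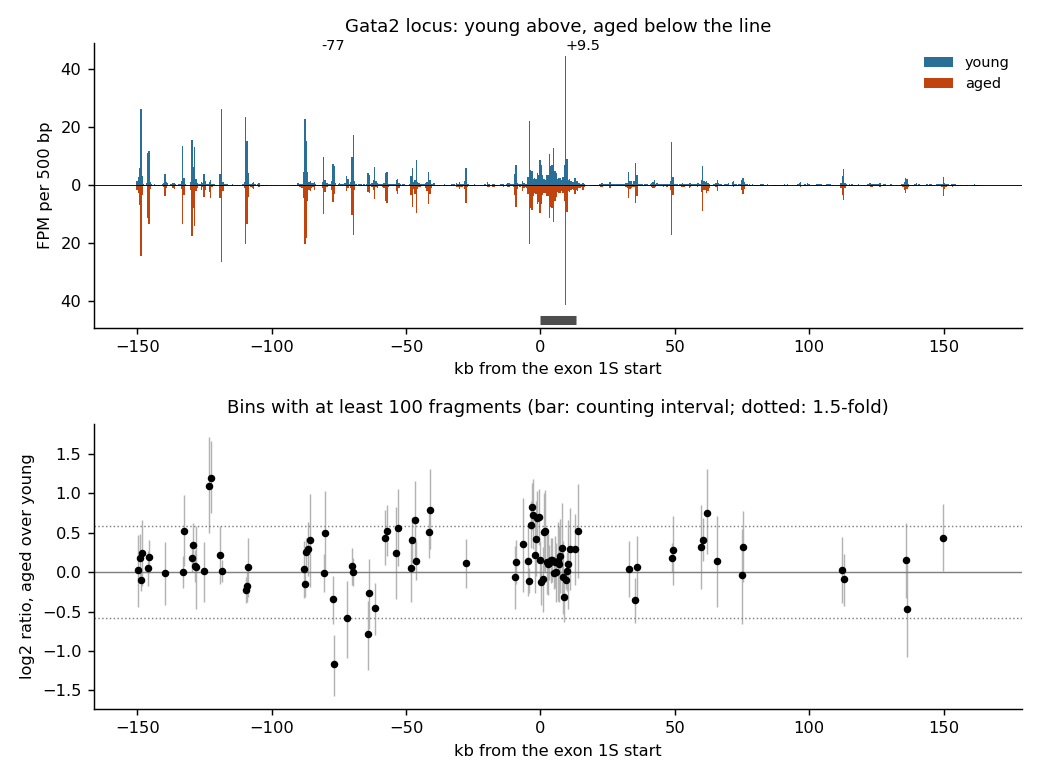
Upper panel, FPM per 500-bp bin over the Gata2 locus by distance in kb from the exon 1S start, young above and aged below the line, with the gene as a grey bar. Lower panel, log2 ratio of the 100 bins with at least 100 fragments, with counting intervals; the lowest point (-1.17) is the bin that holds the second maximum of the -77 peak, and 5 bins between -3.6 and -0.6 kb lie above the upper dotted line, with others between them below it.

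**Figure D4:**
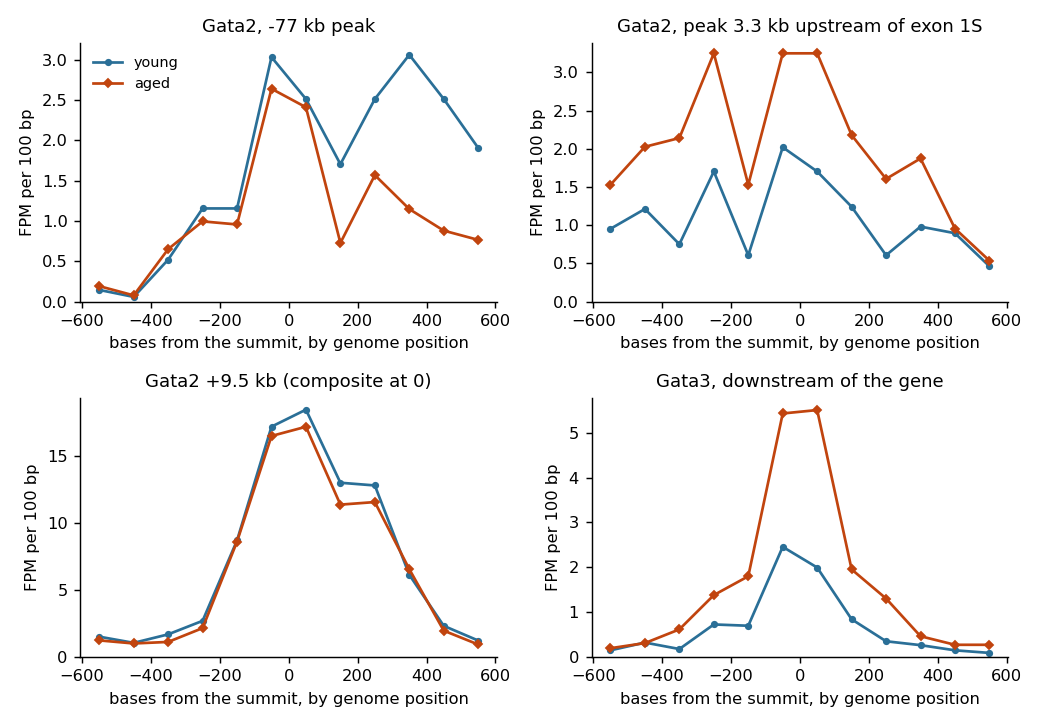
FPM per 100 bases in young (circles) and aged cells (diamonds) around the summit of 4 peaks, by genome position. The 2 curves follow each other at +9.5 kb, part only to the right of the summit at -77 kb, and lie apart over the whole peak at -3.3 kb from Gata2 exon 1S and downstream of Gata3.

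Counted over the whole Gata2 locus, 12 of 100 bins with at least 100 fragments passed 1.5-fold (10 higher and 2 lower in aged cells), or 12.0%. Over the genome 11.9% of such bins did, 9.01% higher and 2.90% lower. For peaks it was 5 of 42 in the locus, or 11.9%, against 13.6% of all peaks, 9.60% higher and 4.01% lower. Both shares of the locus were near those of the genome. The bin with the highest ratio lay at -122.6 kb, towards Rpn1, with 67 young and 116 aged fragments (1.19, 0.75 to 1.65). The summed level of the locus was 666 FPM in young and 686 FPM in aged cells.

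Gata3 was the only one of the 4 with intervals above 0 at both main promoter and gene body. The main promoter had 904 young and 796 aged fragments (0.22, 0.08 to 0.36) and the gene body 6096 and 5272 (0.20, 0.14 to 0.25). The interval at the promoter, but not that of the body, spanned 0 in cells with at most 15000 in-peak fragments (0.15, -0.0023 to 0.29) and in fragments shorter than a nucleosome (0.17, -0.04 to 0.38). These sizes are inside the range of most genes: the promoter ratio stood at percentile 87.8 of all promoters and the body ratio at percentile 85.2 of all gene bodies. In thinned cells 7.21% of young (6.49 to 7.97%) and 8.41% of aged cells (7.48 to 9.41%) had a fragment at the promoter, and 41.4% (40.0 to 42.8%) and 46.2% (44.5 to 47.9%) in the gene body. An alternative Gata3 start, at -11402 bp from the main start, had 467 young and 481 aged fragments, or 13.5 and 18.4 FPM (0.45, 0.26 to 0.64). A start of the gene 9230102O04Rik lies within that window, and the fragments cannot tell the pair apart. This Gata3 start had the highest ratio of the alternative starts. The start at -9184 bp went the other way (-0.11, -0.44 to 0.21). Those at 3201 and 4928 bp were at 0.21 (-0.02 to 0.44) and 0.18 (-0.04 to 0.39).

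The 250 bases before the main Gata3 start (chr2:9878601-9878850, minus strand), shown because the interval at this promoter lay above 0, had 190 young and 183 aged fragments (0.35, 0.05 to 0.65). They held no WGATAR match, which is so for all 4 members' promoters at this length and for Gata2 at both starts, while 26.5% of the 32851 RefSeq promoters of that length held one.

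Gata3 promoter: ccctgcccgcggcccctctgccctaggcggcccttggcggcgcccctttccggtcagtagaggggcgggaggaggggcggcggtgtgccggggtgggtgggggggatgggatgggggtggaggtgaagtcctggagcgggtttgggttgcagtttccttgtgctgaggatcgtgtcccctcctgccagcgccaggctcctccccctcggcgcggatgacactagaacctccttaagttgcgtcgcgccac

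The most open peak of the Gata3 locus, at -1.02 kb from the main start, differed little: it had 1013 young and 743 aged fragments (-0.04, -0.18 to 0.10). Among peaks with at least 200 fragments, the one with the highest ratio lay beyond the gene, between genes. It was 25.8 kb downstream of the main start and 4.27 kb past the 3′ end. It had 158 young and 288 aged fragments, or 4.56 and 11.0 FPM, with a ratio of 1.27 (0.99 to 1.56), a 2.41-fold higher level in aged cells. The 300 bases around its summit (chr2:9852647-9852946, minus strand, WGATAR match in capitals) held 1 WGATAR match and 1 match to the RUNX core.

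Gata3, downstream peak: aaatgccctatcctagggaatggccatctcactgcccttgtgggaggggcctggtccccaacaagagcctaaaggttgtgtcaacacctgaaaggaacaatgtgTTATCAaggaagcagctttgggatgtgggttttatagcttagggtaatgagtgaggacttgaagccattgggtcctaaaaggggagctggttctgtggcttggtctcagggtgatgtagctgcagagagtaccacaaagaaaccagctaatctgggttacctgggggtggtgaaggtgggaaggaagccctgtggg

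A further peak in the Gata3 flank, at -131 kb in an intron of Taf3, had 109 young and 171 aged fragments (1.05, 0.70 to 1.42). The lowest ratios among peaks with at least 200 fragments were small, -0.17 at 2.58 kb and -0.16 at 11.2 kb into the gene, and both intervals spanned 0. In the locus 11 of 72 bins passed 1.5-fold, all higher in aged cells, or 15.3%, and 4 of 36 peaks, 3 higher and 1 lower, or 11.1%. Over the genome the shares were 11.9% of bins, 9.01% higher and 2.90% lower, and 13.6% of peaks. The share of peaks was under that of the genome, and the share of bins higher in aged cells was above it. Among bins with at least 100 fragments, the one with the lowest ratio lay 75.8 kb downstream, with 91 young and 47 aged fragments (-0.53, -1.09 to -0.02). In fragments shorter than a nucleosome the ratio of this bin was -1.09 (-1.92 to -0.41). As a whole the Gata3 locus had 347 FPM in young and 393 FPM in aged cells (0.18, 0.14 to 0.22).

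**Figure D5:**
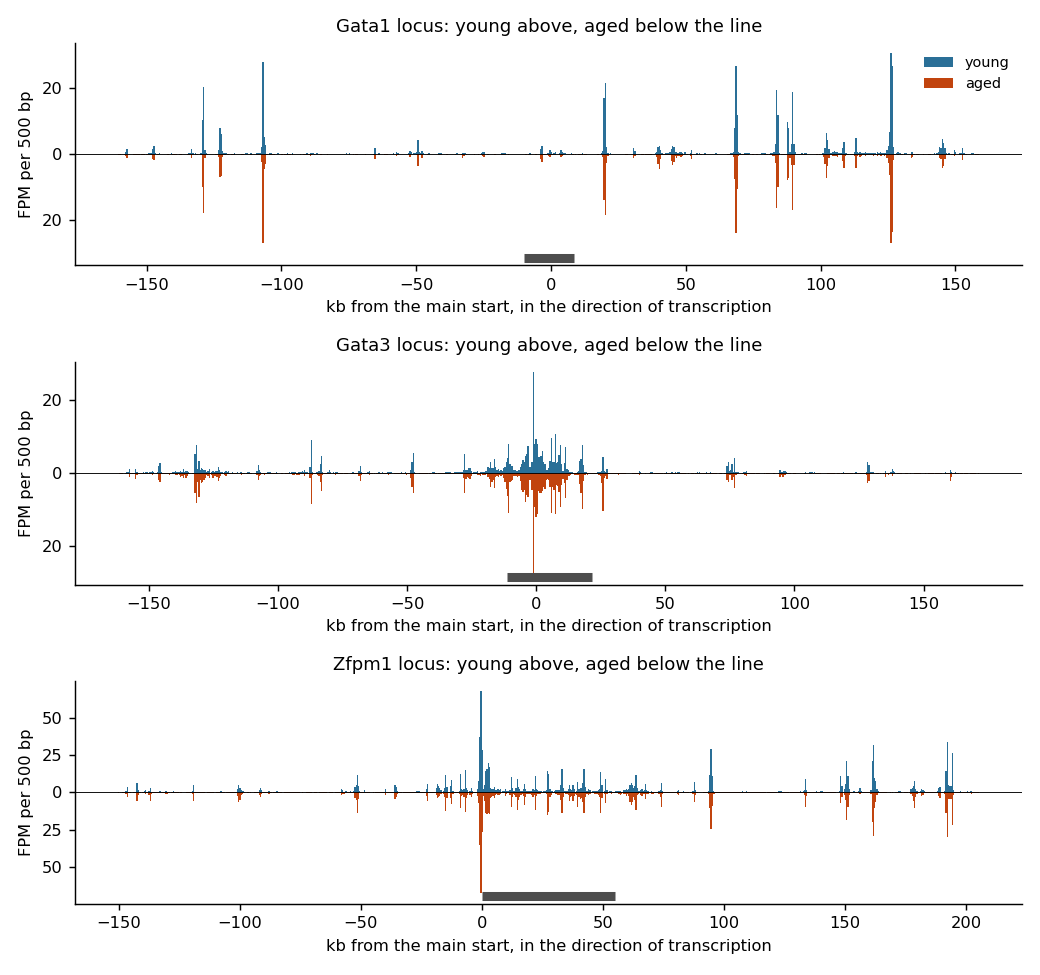
FPM per 500-bp bin over the Gata1, Gata3 and Zfpm1 loci, by distance in kb from the main start in the direction of transcription, young above and aged below the line, with each gene as a grey bar. The Gata1 gene holds no tall bin, the Gata3 gene is open along most of its length, and the tallest Zfpm1 bin is at its start at both ages.

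Gata1 was nearly closed in both libraries. Its main promoter, that of the erythroid first exon, had 52 young and 50 aged fragments (0.35, -0.24 to 0.94). At this depth the interval is wide and spans 0, so the direction of a difference was not resolved. Only 21 of 4788 thinned young cells (0.44%, 0.27 to 0.67%) and 15 of 3271 thinned aged cells (0.46%, 0.26 to 0.76%) had a fragment. The gene body, 18.8 kb on the X chromosome, had 321 young and 229 aged fragments (-0.08, -0.33 to 0.17). A single peak with at least 100 fragments lay in the gene, at the upstream enhancer 3.5 kb before the erythroid first exon.

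The window of this -3.5 enhancer had 108 young and 69 aged fragments, or 3.12 and 2.64 FPM (-0.23, -0.70 to 0.21). The +3.5 intronic window had 53 and 30 fragments (-0.40, -1.11 to 0.26), and the -25 window 38 and 29 (0.03, -0.73 to 0.75). All 3 intervals span 0. The -3.5 peak (chrX:7971317-7971616, minus strand) is shown as the only peak of the gene with at least 100 fragments, with its WGATAR match in capitals, and it held 1 WGATAR match and 1 match to the RUNX core.

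Gata1 -3.5: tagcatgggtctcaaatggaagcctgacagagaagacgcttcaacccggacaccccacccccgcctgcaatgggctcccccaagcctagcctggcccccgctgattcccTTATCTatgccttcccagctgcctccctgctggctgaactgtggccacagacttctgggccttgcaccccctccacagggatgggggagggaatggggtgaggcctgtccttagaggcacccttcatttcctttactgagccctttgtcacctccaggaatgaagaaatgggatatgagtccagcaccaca

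The most open peaks of the Gata1 locus were those of neighbouring promoters. Other peaks with at least 100 fragments lay away from any start. A peak in an Otud5 intron, 9959 bp from the nearest start, had 315 young and 254 aged fragments. The 3 peaks with the most fragments lay at Otud5 (1859 young and 1214 aged fragments, -0.21), Pqbp1 (1284 and 882, -0.14) and Suv39h1 (1141 and 827, -0.06). Of 46 bins 3 passed 1.5-fold, or 6.52%, and of 19 peaks 1, or 5.26%, both under the genome-wide 11.9% and 13.6%. That peak, 40.0 kb downstream in an intron of Eras, had 148 young and 170 aged fragments (0.60, 0.28 to 0.93). It was no longer past 1.5-fold with scaling to all nuclear fragments (0.57) or in fragments shorter than a nucleosome (0.12, -0.44 to 0.67). In the Zfpm1 locus 12 of 141 bins (7 higher and 5 lower in aged cells), or 8.51%, and 6 of 56 peaks (2 higher and 4 lower), or 10.7%, passed.

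Of 10 genes that act with the GATA factors, 9 had at least 100 fragments at their main promoters. None of these 9 passed 1.5-fold, a count near the 3.93% of all promoters, and their median ratio was -0.11 beside -0.05 over all promoters. The main annotated start of the 10th, Erg, had too few fragments, at 0.23 FPM in young and 0.42 FPM in aged cells. Lmo2, a bridging protein of the complex, had 4.82 and 6.77 FPM (0.49, 0.18 to 0.80), and Tal1, its basic helix-loop-helix member, 50.3 and 50.7 FPM (0.01, -0.09 to 0.11). Spi1, which encodes PU.1, an antagonist of GATA-1, had 25.0 and 20.2 FPM (-0.31, -0.47 to -0.15), and Tcf3, an E protein gene, 79.8 and 69.0 FPM (-0.21, -0.30 to -0.12). Of the other GATA and FOG genes, all 5 had at least 100 fragments and none passed 1.5-fold, with a median of 0.18. They ran from Trps1 (0.01) and Zfpm2 (0.12) to Gata6 (0.26, 0.10 to 0.42) and Gata5 (0.52, 0.29 to 0.75).

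Of 18 known GATA target genes, 13 had at least 100 fragments and none passed 1.5-fold, beside 3.93% of all promoters, with a median of -0.09. Itga2b, the platelet integrin subunit, had 30.9 and 24.1 FPM (-0.36, -0.50 to -0.22), and Hdc, the histidine decarboxylase of mast cells and basophils, 3.18 and 2.18 FPM (-0.53, -1.03 to -0.07). Cpa3, a mast cell protease, had 7.22 and 9.79 FPM (0.44, 0.18 to 0.70). Gfi1b, which encodes a transcriptional repressor active in erythroid and megakaryocyte cells, had 23.7 and 24.3 FPM (0.03, -0.12 to 0.18).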

How the data were processed

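Nuclei of sorted HSCs were profiled with the Chromium Next GEM Single Cell ATAC kit, 1 library per age. The authors aligned reads to mm10, removed duplicates and called cells with Cell Ranger ATAC, and analysed the cells in Signac. The deposited files hold fragments with counts of duplicate read pairs and per-barcode counts of fragments; the release that wrote the barcode table was not clear, and no version is given here. In the present work, unique fragments of barcodes called as cells with 3000 to 20000 in-peak fragments were counted once where at least 1 end fell in a region: 50065741 young and 38659456 aged fragments on the autosomes and X. Peaks were called again on these cells (Poisson, window of 151 bases against the larger of the genome and 10000-base mean, q under 0.001; 164550 after merging), and levels were scaled to the 34640217 young and 26149515 aged fragments in them. Doublets were not called, and the upper depth limit was the only guard against them. Ratios used a pseudocount of 1 fragment. The main start was that of the principal transcript (GENCODE M21). Named sites per locus were the 3 peaks with the most fragments, and the 2 highest and 2 lowest ratios among peaks with at least 200. Of bins with at least 100 fragments, those with the highest and lowest ratio were named. Per gene list the 2 highest and 2 lowest ratios with at least 100 fragments were named. Sites chosen in other ways are marked as such. The members and lists were chosen with earlier results of these data known. Sequences are from RefSeq (GRCm38); all 4 members matched its promoter table. The counting functions were tested on simulated data. Python 3.11.15, numpy 2.4.6, pandas 2.3.3, scipy 1.17.1 and matplotlib 3.10.9 were used.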

Additional observations from a re-analysis of the deposited data

How the results depend on the processing

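With 1 library per age, leaving out a replicate was not possible, and whether age, the pool of mice or the library set a difference cannot be told apart. No paired analysis was possible because each group has 1 sample. The -77 and -2.8 ratios of Gata2 kept their direction in all 10 alternatives each, from -0.78 to -0.58 and from 0.45 to 0.77, but fell short of 1.5-fold in some of them. These alternatives are not independent, since all used the same 2 libraries and the rescalings shift every ratio alike. The removal of cells with a marker fragment, among them, was added after the values were seen. Scaling to all nuclear fragments shifted every ratio by -0.03 and scaling by the median of ratios over peaks by -0.01. The causes of the changes below were not tested. In short fragments the +9.5 window gave 0.019 and the window on its composite 0.0024, the only value to change sign against an interval that excluded 0. Thinned cells gave -0.27 and -0.29 there, and 0.046 for the Zfpm1 body. The -3.9 window gave -0.15 at 500 bp. The Gata3 promoter gave 0.38 with 500 bp on either side and 0.44 at the 5′ end of the gene, and its interval spanned 0 at 0.15 with at most 15000 in-peak fragments and at 0.17 in short fragments. Without thinning, the shares of cells with a promoter fragment, young then aged, were 1.02% and 1.38% for Gata1, 18.2% and 20.7% for Gata2, 16.3% and 20.2% for Gata3, and 53.3% and 54.4% for Zfpm1.

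The counts past 1.5-fold changed with the settings, and so did the number of bins or peaks tested. The genome shares above hold for the main settings only. For bins of Gata1, Gata2, Gata3 and Zfpm1 in turn, a 2-fold limit left 0 of 46, 3 of 100, 3 of 72 and 1 of 141. A minimum of 50 fragments gave 7 of 69, 29 of 158, 27 of 109 and 29 of 221. A minimum of 200 fragments gave 1 of 28, 6 of 60, 6 of 41 and 4 of 82. Thinned cells gave 0 of 22, 5 of 47, 6 of 32 and 4 of 67. Cut sites gave 5 of 62, 24 of 133, 23 of 96 and 19 of 182. Short fragments gave 0 of 25, 6 of 56 and 3 of 29 for the first 3 loci, and 1-kb bins 5 of 113 for Zfpm1. For peaks, the 2-fold limit left 0 of 19, 1 of 42, 2 of 36 and 2 of 56. The minimum of 50 fragments gave 4 of 32, 9 of 47 and 9 of 49 for the first 3 loci, and the minimum of 200 fragments 3 of 37 for Gata2. Thinned cells gave 2 of 19 for Gata3 and 3 of 40 for Zfpm1, and cut sites 4 of 28 for Gata1 and 7 of 41 for Gata3. For Gata1, short fragments gave 0 of 17 and all nuclear fragments 0 of 19. The 38 named peaks, bins and windows were measured under 3 settings added after seeing the data, and 110 of 114 values stayed within their intervals. Of these settings, 2 were the rescalings, which shift every ratio alike by less than the intervals span, so that their values could not leave them. All 4 values that moved were in short fragments, and none turned against its interval.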

Other observations

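Markers of the other lineages that a stem cell sort could hold were measured at the same windows. The 6 megakaryocyte markers summed to 126 FPM in young and 121 FPM in aged cells. All had at least 100 fragments, with a median ratio of -0.04, and Vwf, von Willebrand factor, was the only one past 1.5-fold, at 11.1 FPM in young and 17.8 FPM in aged cells (0.68, 0.48 to 0.88), beside 3.33% of all promoters past it in that direction. The erythroid markers summed to 38.9 FPM in young and 37.5 FPM in aged cells, most of it from Epor, the erythropoietin receptor gene, at 26.2 and 25.2 FPM. The mast cell and basophil markers summed to 11.6 and 13.8 FPM. The T and innate lymphoid markers summed to 20.1 and 16.6 FPM. Of the 3 with at least 100 fragments, Lck and Il7r were past 1.5-fold lower in aged cells, beside 0.602% of all promoters. Both lay close to the minimum of 100 fragments. Lck had 72 young and 29 aged fragments (-0.88, -1.58 to -0.27) and Il7r 79 and 39 (-0.59, -1.205 to -0.04). The B cell markers summed to 22.4 and 23.98 FPM. None of these lists had a marker without fragments in either library.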
